A study of Homo sapiens with 8 samples.

Results

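A set of 10 genes that report on the circadian clock were followed in IGR-N91, a line of human neuroblastoma (NB) cells kept in hanging drops, where they form aggregates. They were chosen by name, as clock repressors and D-box factors, with earlier results of these data known. They were found by Ensembl identifier in the deposited counts, where they made up 10 of 60676 genes. BHLHE41 was among them because it also belongs to a published gene set of the mesenchymal NB cell identity. RNA was sequenced from 8 libraries in 4 groups of 2. The control group was kept in medium in which no tissue had been cultured. The other groups received the same serum-containing medium after culture with sympathetic ganglia of chick embryos at embryonic day 8 (E8-cSGcm, chick GS media in the labels), dorsal root ganglia of chick embryos of the same day (E8-cDRGcm), or sympathetic ganglia of mouse embryos at day E15.5 (E15.5-mSGcm). The ganglia came from several embryos for each batch of medium. The count columns tag both control libraries E8, like those of the chick media, and no control carries the E15.5 tag. What the tag means for the controls is not stated. All groups were the same line with no genetic change between them, and all were harvested at 1 time, given as 20 h in the treatment labels and as 24 h in the design text.

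The circadian clock is a feedback loop of transcription. The activators CLOCK and BMAL1, joined by NPAS2, bind E-box sequences and switch on genes of the PER, CRY, NR1D and BHLHE40 families, whose products then hold the activators or their genes in check. The PAR bZIP proteins DBP and TEF are made under the same control and act on D-box sequences, where NFIL3 opposes them. In culture the loops of single cells drift apart unless a signal such as serum, glucocorticoid or cAMP sets them together. Since the aggregates were sampled once, the data give the level of each transcript in the whole population and no phase or rhythm. In RNA from whole aggregates, fewer cells with a transcript and less of it in each cell cannot be told apart.

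The start regions of the genes were searched for the control elements of the clock, and they are given here for the genes on which the results turn. Each is the RefSeq sequence on GRCh38.p14, from 250 bases before to 50 after the annotated start, read 5′ to 3′ on the strand of the gene. Capitals mark the letters of the E-box (CACGTG), of its E′-box variant (CACGTT) and of the D-box (TTANGTAA), searched on both strands. BHLHE40 (chr3:4979187-4979486, plus strand) and BHLHE41 (chr12:26124988-26125287, minus strand) are the paralogous repressors. PER2 (chr2:238288561-238288860, minus strand), PER3 (chr1:7784041-7784340, plus strand) and NR1D2 (chr3:23945871-23946170, plus strand) are shown beside them because each holds a D-box.
BHLHE40: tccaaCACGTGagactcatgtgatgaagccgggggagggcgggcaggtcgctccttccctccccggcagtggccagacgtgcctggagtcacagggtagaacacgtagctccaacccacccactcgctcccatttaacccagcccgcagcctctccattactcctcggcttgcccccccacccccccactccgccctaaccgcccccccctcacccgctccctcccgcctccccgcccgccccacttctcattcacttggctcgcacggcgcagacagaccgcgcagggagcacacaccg
BHLHE41: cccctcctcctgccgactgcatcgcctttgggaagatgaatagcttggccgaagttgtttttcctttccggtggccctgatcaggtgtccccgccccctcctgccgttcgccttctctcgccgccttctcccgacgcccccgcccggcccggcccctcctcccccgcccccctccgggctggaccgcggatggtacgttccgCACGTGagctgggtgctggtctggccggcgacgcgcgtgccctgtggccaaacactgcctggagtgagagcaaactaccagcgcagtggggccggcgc
PER2: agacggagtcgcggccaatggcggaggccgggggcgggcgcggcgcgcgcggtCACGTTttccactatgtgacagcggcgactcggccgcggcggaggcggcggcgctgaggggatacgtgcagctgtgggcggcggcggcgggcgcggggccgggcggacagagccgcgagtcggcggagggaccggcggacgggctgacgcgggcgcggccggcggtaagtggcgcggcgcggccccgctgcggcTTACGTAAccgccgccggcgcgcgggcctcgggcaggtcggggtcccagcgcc
PER3: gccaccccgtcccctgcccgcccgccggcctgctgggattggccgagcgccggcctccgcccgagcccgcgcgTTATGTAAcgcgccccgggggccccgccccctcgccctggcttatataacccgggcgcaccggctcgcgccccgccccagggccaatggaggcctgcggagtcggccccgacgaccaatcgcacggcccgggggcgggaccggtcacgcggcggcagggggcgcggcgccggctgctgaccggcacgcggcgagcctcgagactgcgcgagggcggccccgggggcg
NR1D2: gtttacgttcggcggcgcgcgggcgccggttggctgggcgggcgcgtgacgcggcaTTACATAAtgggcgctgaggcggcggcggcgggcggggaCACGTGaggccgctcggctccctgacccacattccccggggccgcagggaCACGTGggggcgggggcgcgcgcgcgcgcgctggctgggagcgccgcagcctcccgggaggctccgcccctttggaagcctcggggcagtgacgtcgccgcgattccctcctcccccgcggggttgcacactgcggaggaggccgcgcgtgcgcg

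The E-box lies 245 bases before the start in BHLHE40 and 48 bases before it in BHLHE41. NR1D2 has a pair of E-boxes, 155 and 105 bases before the start. Its D-box begins 194 bases before the start, that of PER3 177 and that of PER2 3 bases before it. Of the 13 start regions listed for the 10 genes, 6 held the E-box, against 7.26% of all 35116 start regions of this length. These 6 belong to 5 of the 10 genes, BHLHE40, BHLHE41, PER1, NR1D2 and TEF. The E′-box occurred in 3 of the 13 regions, in PER2, CRY1 and NR1D1, against 5.34% of all regions. The D-box occurred in 3 of the 13, in PER2, PER3 and NR1D2, against 2.18%. The ROR element TAGGTCA and the cAMP response element TGACGTCA were in none of the 13 regions of the 10 genes, and each was in 1.85% of all regions. The start region of DBP, and the other region listed for PER3 and for NR1D2, which is not printed above, held none of the 5 elements. These matches describe letters in a window and were not tested for binding.

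Each library held between 7930765 and 15060744 reads assigned to genes, with the E15.5-mSGcm libraries the smallest. Values are given as reads and as CPM, the usual scaling of reads to a fixed library total, here the TMM-normalized one. A floor of 3 reads corresponds to 0.199 to 0.378 CPM and covers counting error only, since the reads carry no molecular identifier and several can come from one molecule. A gene was called when edgeR's quasi-likelihood test gave a Benjamini-Hochberg adjusted p under 0.05 over all 16680 genes tested and the fold change was at least 1.5. All 10 genes passed the filter on low counts. Nothing in the labels says that the libraries of a group came from separate cultures, so the p-values measure the spread between these libraries, which may be technical. Of 7 noradrenergic markers, 6 were measured, TH and DBH among them, while CHGA was at 0 in every library. Their summed level was 1248 to 1267 CPM in control, 1062 to 1144 in E8-cSGcm, 1044 to 1064 in E8-cDRGcm and 944 to 982 in E15.5-mSGcm, with HAND2 alone at 516 to 748 CPM over all libraries. Single markers, named after their values were seen, moved more than this sum. TH was called lower in E15.5-mSGcm, at -3.03 on the log2 scale, DBH lower in E8-cSGcm (-1.11) and E8-cDRGcm (-1.96), and PHOX2A (-1.03) and ISL1 (-0.73) lower in E8-cDRGcm, while DBH in E15.5-mSGcm was at 0.47. Schwann and satellite glia markers summed to at most 1.04 CPM with SOX10 and FABP7 at 0, and endothelial and leukocyte markers to at most 1.15 CPM, with CDH5 at 0. The endothelial sum covers CDH5 and KDR only, since PECAM1 could not be matched to an identifier. Fibroblast markers summed to 147 to 218 CPM over all libraries and to 154.5 to 171.5 CPM in control. In E15.5-mSGcm, PDGFRA, DCN and LUM were higher and COL1A1 lower than in control. The part of these shifts in the results below was not tested.

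Compared with control, the strongest response of the family was the rise of BHLHE40 and BHLHE41 in E15.5-mSGcm and the fall of PER3 in E8-cDRGcm. In E15.5-mSGcm, 2 of 10 genes were called higher and 0 lower, against a background of 6.65% higher and 7.27% lower over all genes tested. In E8-cDRGcm, 0 were called higher and 1 lower, against 9.81% and 10.9%. In E8-cSGcm, edgeR called 0 higher and 0 lower, against 4.73% and 3.86%. DESeq2 also called 0 in E8-cSGcm, and 3 of the 10 had an unadjusted p under 0.05 there with edgeR. By the adjusted p alone, in either direction, 3 genes passed in E8-cSGcm against 31.3% of all genes, 4 in E8-cDRGcm against 49.5%, and 6 in E15.5-mSGcm against 37.8%. The median log2 fold change of the 10 was 0.03 in E8-cSGcm, 0.11 in E8-cDRGcm and -0.13 in E15.5-mSGcm, beside 0.01, 0.01 and -0.02 over all genes. The 3 comparisons share the control libraries. These counts are too small to set the 10 genes apart from the background, and the account below is of single genes.

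**Figure D1:**
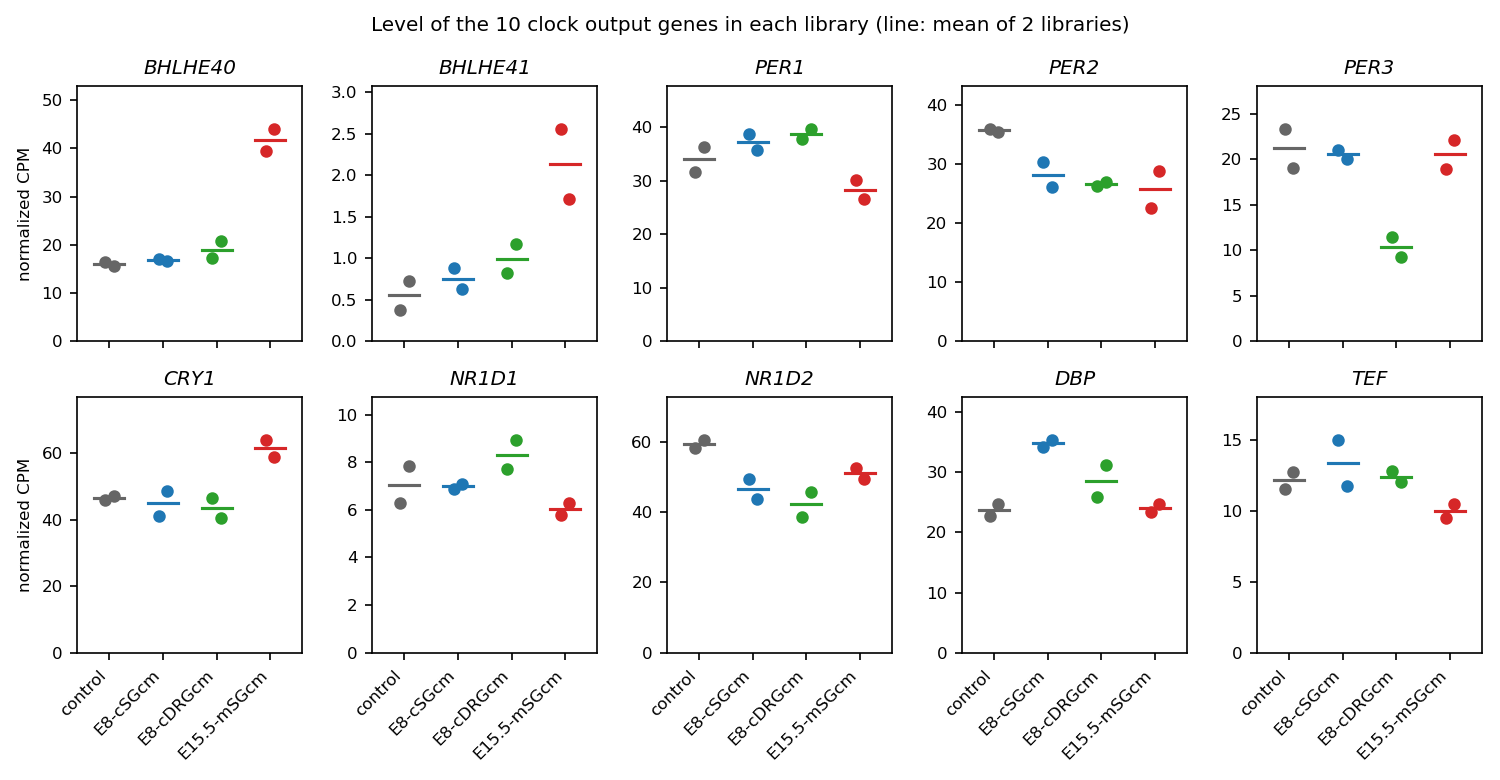
Level of each clock output gene in each library, in normalized CPM on a linear axis from 0, with a dot for each of the 2 libraries of a group and a line at their mean. BHLHE40 lies between 15.7 and 20.7 CPM in 6 libraries and at 39.5 and 44.1 CPM in E15.5-mSGcm, whereas PER3 is lowest in the E8-cDRGcm libraries, at 11.4 and 9.30 CPM.

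BHLHE40 (ENSG00000134107), also called DEC1, is a basic helix-loop-helix repressor that competes with CLOCK and BMAL1 for E-boxes and answers to many stimuli besides the clock. It had 214 and 238 reads in control, 214 and 239 in E8-cSGcm, 230 and 283 in E8-cDRGcm and 308 and 386 in E15.5-mSGcm. Scaled to the libraries, these are 16.4 and 15.7, 17.2 and 16.7, 17.2 and 20.7, and 39.5 and 44.1 CPM. The 2 E15.5-mSGcm libraries stood above all others, and the 6 others lay close together. Against control the rise in E15.5-mSGcm was 2.62-fold, a log2 fold change of 1.39 (SE 0.105, adjusted p = 1.84e-13). It was also higher in E15.5-mSGcm than in E8-cSGcm, by 1.30 on the log2 scale (adjusted p = 5.02e-13), and than in E8-cDRGcm, by 1.14 (adjusted p = 5.82e-12). The chick media gave log2 fold changes against control of 0.08 (adjusted p = 0.631) and 0.25 (adjusted p = 0.0615), with 95% intervals of -0.15 to 0.31 and 0.02 to 0.47. On GRCh37 the gene lies on chromosome 3 from 5021122 to 5027008, and 451 bases of its exons (12.8%) overlap BHLHE40-AS1 on the other strand, which had 2 to 8 reads a library.

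BHLHE41 (ENSG00000123095), DEC2, is the paralog of BHLHE40 and represses through the same E-boxes. It was the least abundant of the 10, with 5 and 11 reads in control, 11 and 9 in E8-cSGcm, 11 and 16 in E8-cDRGcm and 20 and 15 in E15.5-mSGcm. The levels were 0.382 and 0.723, 0.882 and 0.630, 0.823 and 1.17, and 2.56 and 1.71 CPM. Both E15.5-mSGcm libraries exceeded all others, and the control and E8-cSGcm libraries overlapped. The rise over control in E15.5-mSGcm was 3.71-fold, a log2 fold change of 1.89 (SE 0.468, adjusted p = 0.00143), with a 95% interval of 0.94 to 2.84. E8-cSGcm gave 0.40 (adjusted p = 0.618) and E8-cDRGcm 0.81 (adjusted p = 0.178). BHLHE41 was called higher in E15.5-mSGcm than in E8-cSGcm, by 1.49 (adjusted p = 0.0057), and than in E8-cDRGcm, by 1.08 (adjusted p = 0.0315). At this depth these calls were not stable: DESeq2 gave adjusted p of 0.0751 and 0.197, and without E15.5-mSGcm replicate 1 edgeR gave 0.106 and 0.278. The call against control held in DESeq2 (adjusted p = 0.0283). The gene lies on chromosome 12 from 26272963 to 26277970. Of its exonic bases, 162 (4.2%) overlap SSPN on the other strand, which had 28 to 79 reads a library. The strand setting of the read counting is not known, so reads of BHLHE41 and SSPN may be mixed.

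Per kilobase of exon, BHLHE40 exceeded BHLHE41 by 35.3 ± 16.4 times in control (SD, n = 2) and by 22.6 ± 8.01 times in E15.5-mSGcm. The individual libraries gave ratios of 46.9 and 23.7 in control and 16.9 and 28.2 in E15.5-mSGcm, which overlap. In terms of transcripts, the response of the pair to E15.5-mSGcm was therefore almost wholly BHLHE40, whose per-length level went from 4.55 ± 0.143 to 11.9 ± 0.933 CPM per kb, while that of BHLHE41 went from 0.143 ± 0.0626 to 0.555 ± 0.156.

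The PER proteins carry PAS domains, bind CRY proteins and repress CLOCK and BMAL1, and their genes did not move together. PER3 (ENSG00000049246) is the member that the core loop can do without. It had 306 and 290 reads in control, 263 and 286 in E8-cSGcm, 153 and 127 in E8-cDRGcm and 148 and 194 in E15.5-mSGcm. The levels were 23.4 and 19.1, 21.1 and 20.0, 11.4 and 9.30, and 19.0 and 22.2 CPM. The E8-cDRGcm libraries lay below all others, and the other 3 groups overlapped. PER3 fell by 1.03 on the log2 scale in E8-cDRGcm against control, 2.04-fold (SE 0.125, adjusted p = 1.06e-08). It was lower than in E8-cSGcm by a log2 difference of -0.99 (adjusted p = 1.39e-07), and E15.5-mSGcm exceeded E8-cDRGcm by 0.99 (adjusted p = 1.22e-07). The log2 differences of E8-cSGcm and E15.5-mSGcm from control were -0.04 and -0.03, with 95% intervals of -0.27 to 0.18 and -0.28 to 0.21. The gene spans 7844351 to 7905237 on chromosome 1, and UTS2, whose exons overlap 868 bases (10.7%) of PER3 on the other strand, had at most 1 read in a library.

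PER2 (ENSG00000132326), a core repressor needed for the loop, was below control in every medium by less than 1.5-fold. Its 472 and 541 reads in control compare with 380 and 373 in E8-cSGcm, 352 and 369 in E8-cDRGcm, and 177 and 253 in E15.5-mSGcm. As levels these are 36.1 and 35.6, 30.5 and 26.1, 26.3 and 27.0, and 22.7 and 28.9 CPM, so that both control libraries stood above all 6 others, and the 3 media overlapped. The log2 fold changes were -0.34 in E8-cSGcm (adjusted p = 0.00413), -0.42 in E8-cDRGcm (adjusted p = 2.55e-04) and -0.47 in E15.5-mSGcm (adjusted p = 4.26e-04). DESeq2 gave adjusted p of 0.0608, 0.0112 and 0.00951 in the same order, so the change in E8-cSGcm did not pass there. No difference between the media passed the test, with adjusted p from 0.366 to 0.773 and log2 differences of -0.12 to -0.04. The 95% intervals of those differences reach from -0.34 to 0.18.

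PER1 (ENSG00000179094), the PER gene induced most readily by acute stimuli, had 414 and 551 reads in control, 483 and 510 in E8-cSGcm, 506 and 542 in E8-cDRGcm and 235 and 232 in E15.5-mSGcm. The levels were 31.7 and 36.2, 38.7 and 35.7, 37.8 and 39.7, and 30.1 and 26.5 CPM. The mouse medium was lowest and the E8-cDRGcm libraries were above both control libraries. No contrast with control reached 1.5-fold, with log2 fold changes of 0.13 (adjusted p = 0.283) and 0.19 (adjusted p = 0.0666) in the chick media and -0.27 (adjusted p = 0.0276) in E15.5-mSGcm. In DESeq2 the change in E15.5-mSGcm did not pass (adjusted p = 0.152). The difference between E15.5-mSGcm and the chick media passed the adjusted p, at -0.40 against E8-cSGcm (adjusted p = 8.57e-04) and -0.46 against E8-cDRGcm (adjusted p = 1.27e-04).

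Per kilobase of exon, the summed PER level was 12.5 ± 0.0354 CPM per kb in control, 11.8 ± 0.827 in E8-cSGcm, 10.6 ± 0.0707 in E8-cDRGcm and 10.2 ± 0.537 in E15.5-mSGcm (mean ± SD, n = 2). Its makeup also differed between groups. PER3 contributed 20.9 ± 3.07% in control, 21.4 ± 0.721% in E8-cSGcm, 12.1 ± 1.84% in E8-cDRGcm and 24.7 ± 1.43% in E15.5-mSGcm. PER1 contributed 38.7 ± 3.59% in control and 52.3 ± 1.42% in E8-cDRGcm, and the library values of these groups did not overlap, 36.2% and 41.3% against 51.3% and 53.4%. In E8-cSGcm its share, 44.5% and 45.3%, was also above both control libraries. In E15.5-mSGcm it was 43.7% and 35.7%, which overlapped control. PER2 contributed 40.4 ± 0.523% in control, 33.7 ± 1.30% in E8-cSGcm, 35.6 ± 0.424% in E8-cDRGcm and 35.5 ± 4.22% in E15.5-mSGcm. A share depends on all 3 genes, and PER1 itself had a log2 fold change of only 0.19 in E8-cDRGcm. These shares are given as a description, and were not tested.

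**Figure D2:**
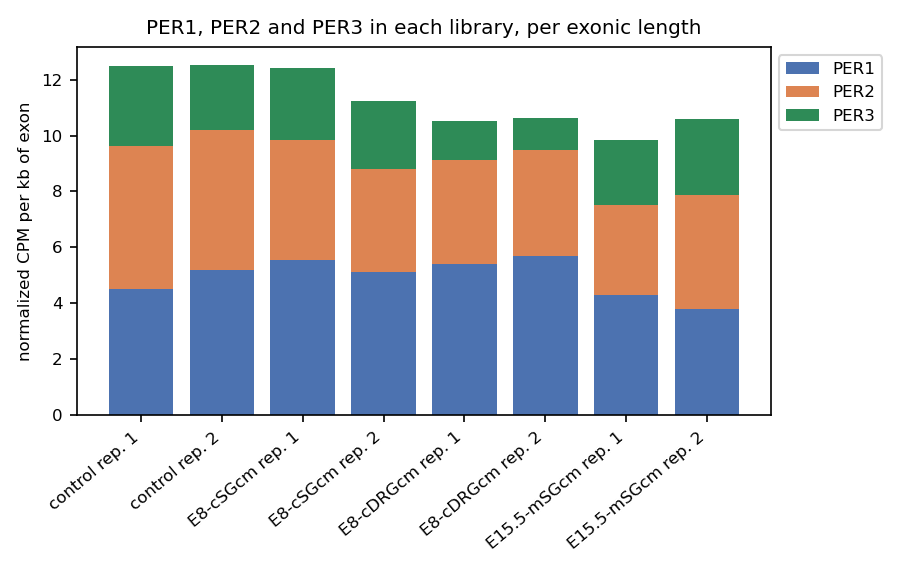
Summed level of PER1, PER2 and PER3 in each of the 8 libraries, in normalized CPM per kilobase of exon, stacked from 0 with 1 bar for each library. The PER3 segment is smallest in the E8-cDRGcm bars, where it makes up 13.4% and 10.8% of the sum, against 18.7% to 25.8% in the other libraries.

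CRY1 (ENSG00000008405) encodes the cryptochrome that joins PER proteins in repression. It had 600 and 718 reads in control, 513 and 696 in E8-cSGcm, 624 and 554 in E8-cDRGcm and 500 and 517 in E15.5-mSGcm. The levels of 45.9 and 47.2, 41.1 and 48.7, 46.7 and 40.6, and 64.1 and 59.1 CPM place the mouse medium above all others, with the other groups overlapping. The log2 fold change in E15.5-mSGcm was 0.40 (adjusted p = 2.32e-04), 1.32-fold and thus under the fold criterion. E15.5-mSGcm was also above E8-cSGcm by 0.45 (adjusted p = 3.50e-05) and above E8-cDRGcm by 0.50 (adjusted p = 6.45e-06).

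NR1D1 and NR1D2 encode REV-ERBα and REV-ERBβ, the nuclear receptors that bind ROR elements and repress the gene of BMAL1. NR1D2 (ENSG00000174738) had 762 and 921 reads in control, 616 and 624 in E8-cSGcm, 518 and 625 in E8-cDRGcm and 410 and 434 in E15.5-mSGcm. Its levels were 58.3 and 60.6, 49.4 and 43.7, 38.7 and 45.8, and 52.5 and 49.6 CPM, with the control libraries above all 6 others. The log2 fold changes were -0.36 (adjusted p = 4.67e-04), -0.49 (adjusted p = 2.11e-06) and -0.22 (adjusted p = 0.0323) in E8-cSGcm, E8-cDRGcm and E15.5-mSGcm. None of these reached 1.5-fold, and in DESeq2 the change in E15.5-mSGcm did not pass (adjusted p = 0.167). E15.5-mSGcm was above E8-cDRGcm by 0.27 (adjusted p = 0.00824, and 0.0575 in DESeq2).

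NR1D1 (ENSG00000126368) had 82 and 119 reads in control, 86 and 101 in E8-cSGcm, 103 and 122 in E8-cDRGcm and 45 and 55 in E15.5-mSGcm, or 6.27 and 7.83, 6.90 and 7.07, 7.70 and 8.94, and 5.77 and 6.28 CPM. Its log2 fold changes against control were -0.02 (adjusted p = 0.946), 0.23 (adjusted p = 0.252) and -0.23 (adjusted p = 0.373). The difference between E15.5-mSGcm and E8-cDRGcm was -0.46 (adjusted p = 0.0391, and 0.193 in DESeq2). Of its exonic bases, 473 (18.0%) overlap THRA on the other strand, which had 263 to 586 reads a library. The strand setting of the read counting is not given in the sources used here, so reads of NR1D1 and THRA may be mixed. Per kilobase of exon, NR1D2 exceeded NR1D1 by 3.87 ± 0.499 times in control, 3.03 ± 0.316 in E8-cSGcm, 2.30 ± 0.0304 in E8-cDRGcm and 3.86 ± 0.392 in E15.5-mSGcm (n = 2). The E8-cDRGcm libraries, at 2.28 and 2.33, were the lowest of the 8.

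DBP (ENSG00000105516) and TEF (ENSG00000167074) are the PAR bZIP activators of D-box genes, and DBP is among the transcripts with the widest daily swing in many tissues. DBP had 298 and 376 reads in control, 427 and 505 in E8-cSGcm, 347 and 427 in E8-cDRGcm and 182 and 217 in E15.5-mSGcm. As levels, these were 22.8 and 24.7, 34.2 and 35.4, 26.0 and 31.3, and 23.3 and 24.8 CPM. E8-cSGcm was highest, E8-cDRGcm lay between, and E15.5-mSGcm overlapped control. DBP was above control by 0.55 on the log2 scale in E8-cSGcm (adjusted p = 1.56e-05), 1.46-fold and so just under the fold criterion, and by 0.27 in E8-cDRGcm (adjusted p = 0.0201). DESeq2 gave adjusted p of 0.00124 in E8-cSGcm and 0.149 in E8-cDRGcm. Without control replicate 2 the value in E8-cSGcm was 0.61 (adjusted p = 1.91e-04), and DBP was then called. In E15.5-mSGcm the log2 fold change was 0.02, with a 95% interval of -0.20 to 0.24, and E15.5-mSGcm was below E8-cSGcm by a log2 difference of -0.53 (adjusted p = 4.59e-05). Exons of SPHK2 on the other strand overlap 661 bases (10.2%) of DBP, and SPHK2 had 145 to 282 reads a library. Reads of DBP and SPHK2 may also be mixed.

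TEF had 151 and 194 reads in control, 187 and 168 in E8-cSGcm, 171 and 164 in E8-cDRGcm and 74 and 92 in E15.5-mSGcm, which are 11.5 and 12.8, 14.99 and 11.8, 12.8 and 12.0, and 9.48 and 10.5 CPM. Its log2 fold changes against control were 0.13, 0.03 and -0.28, with adjusted p of 0.510, 0.894 and 0.154. Only the difference between E15.5-mSGcm and E8-cSGcm, -0.41, passed the adjusted p by edgeR (0.0254), and it was under 1.5-fold. In DESeq2 that difference did not pass (adjusted p = 0.152).

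**Figure D3:**
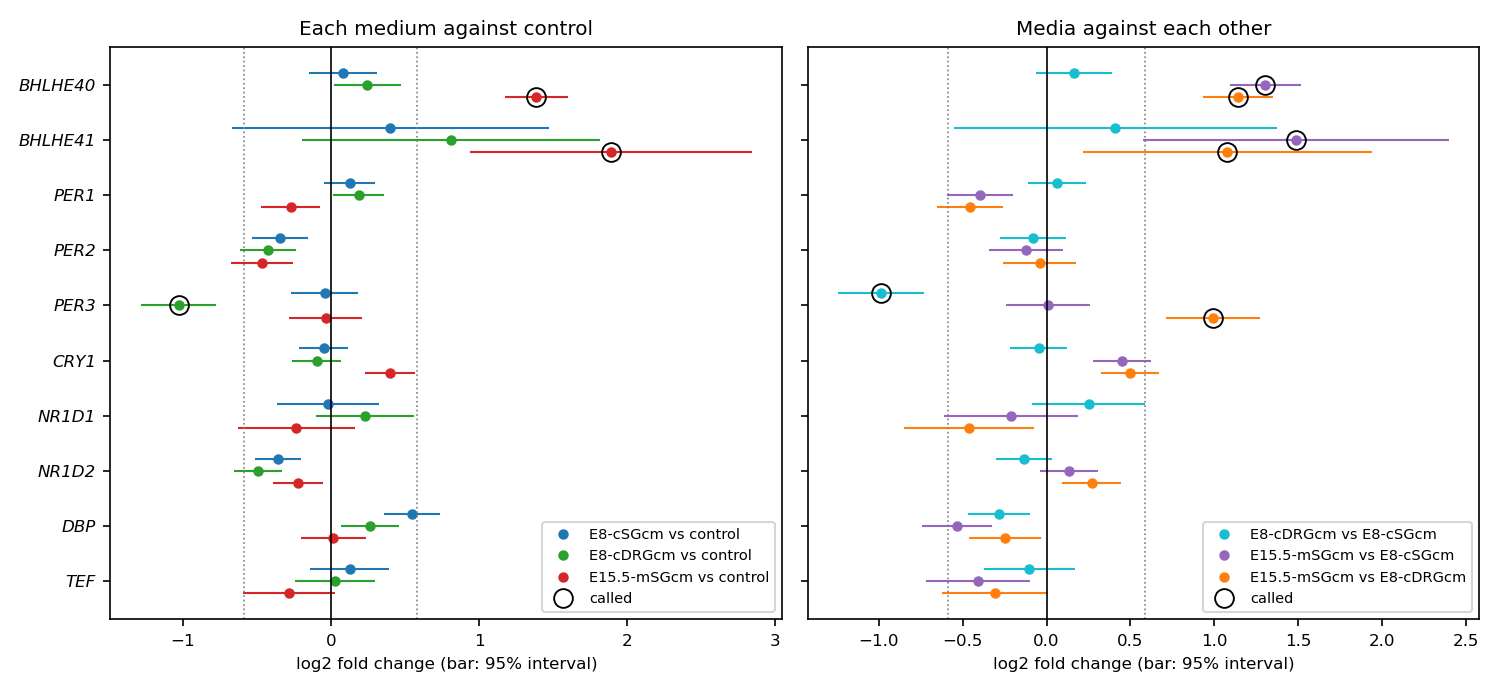
Log2 fold change of each clock output gene, against control at the left and between media at the right, with bars for the 95% interval, dotted lines at 1.5-fold and circles around called values. BHLHE40 and BHLHE41 are circled in all 3 contrasts of E15.5-mSGcm, and PER3 in all 3 contrasts that compare E8-cDRGcm with another group.

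Between the media, E8-cDRGcm against E8-cSGcm had 0 of the 10 genes called higher and 1 lower, PER3, against a background of 2.62% and 4.87%. E15.5-mSGcm against E8-cSGcm had 2 called higher and 0 lower, against 10.2% and 12.1%. E15.5-mSGcm against E8-cDRGcm had 3 called higher, BHLHE40, BHLHE41 and PER3, and 0 lower, against 13.1% in each direction. By the adjusted p alone, 2 genes passed between the chick media against 30.2% of all genes, 6 between E15.5-mSGcm and E8-cSGcm against 49.8%, and 8 between E15.5-mSGcm and E8-cDRGcm against 52.6%. The 6 genes that passed between the 2 sympathetic media are too few to set the 10 apart from the 49.8% of all genes. Of them, BHLHE40, BHLHE41 and CRY1 were higher in the mouse medium and PER1, DBP and TEF higher in the chick medium. In DESeq2, BHLHE41 and TEF did not pass there (adjusted p = 0.0751 and 0.152). The species and the stage of the ganglia differ together between these media and cannot be told apart. Between E15.5-mSGcm and E8-cDRGcm, DESeq2 did not pass BHLHE41 (adjusted p = 0.197), NR1D1 (0.193), NR1D2 (0.0575) and DBP (0.194). Between the chick media it did not pass DBP (adjusted p = 0.152).

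Set in order of level per kilobase of exon in control, NR1D2 (10.3 ± 0.281 CPM per kb) and CRY1 (9.73 ± 0.198) led, followed by PER2 (5.06 ± 0.0512), PER1 (4.85 ± 0.462) and BHLHE40 (4.55 ± 0.143). DBP (3.66 ± 0.212), NR1D1 (2.68 ± 0.418), PER3 (2.61 ± 0.376) and TEF (2.58 ± 0.182) came below, and BHLHE41 (0.143 ± 0.0626) last. The neighbours PER2, PER1 and BHLHE40 lie within about the spread of PER1, and NR1D1, PER3 and TEF do not differ beyond their spread. In E15.5-mSGcm, BHLHE40 rose to 11.9 ± 0.933 CPM per kb, next to CRY1 at 12.9 ± 0.738 and above NR1D2 at 8.81 ± 0.359. The lengths are those of all annotated exons of a gene, and which of them are used in these cells was not measured. The order therefore depends on the annotation, as for DBP, with 6485 exonic bases in 2 blocks.

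The rest of the clock was read from 24 further genes, of which 22 could be tested. RORB and FBXL21 were too low. This list and the signal lists below were also chosen with earlier results of these data known. Against control, 4 of 22 were called higher and 2 lower in E8-cSGcm, 6 and 2 in E8-cDRGcm, and 1 and 2 in E15.5-mSGcm. The shares over all genes were those given above, 4.73% and 3.86%, 9.81% and 10.9%, and 6.65% and 7.27%. The median log2 fold changes were 0.26, 0.19 and 0.14, beside 0.01, 0.01 and -0.02 over all genes. Among the activators, CLOCK and BMAL1 (ARNTL in the annotation) were not called in any medium. NPAS2, which can stand in for CLOCK, had 18 and 36 reads in control, 49 and 48 in E8-cSGcm, 36 and 45 in E8-cDRGcm and 157 and 162 in E15.5-mSGcm. Its level in the last group, 20.1 and 18.5 CPM, compares with 1.38 and 2.37 CPM in control, a log2 fold change of 3.33 (SE 0.207, adjusted p = 6.97e-16). The chick media gave 0.93 (adjusted p = 0.00608) and 0.65 (adjusted p = 0.0456), and E15.5-mSGcm exceeded E8-cSGcm by 2.41 (adjusted p = 1.60e-13). BMAL2 (ARNTL2) was called in E8-cDRGcm, at 0.73 (adjusted p = 1.81e-06).

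RORA, a receptor that activates through the element that the REV-ERB proteins repress, differed by medium. It had 6.73 and 5.39 CPM in control, 10.5 in both E8-cSGcm libraries, 16.9 and 14.6 in E8-cDRGcm and 7.81 and 8.11 in E15.5-mSGcm. It was called in both chick media, at 0.80 (adjusted p = 1.11e-04) and 1.38 (adjusted p = 3.74e-10), and was 0.40 (adjusted p = 0.0793) in E15.5-mSGcm. CIART, a further repressor of CLOCK and BMAL1, was called lower in both chick media, at -0.61 (adjusted p = 0.0193) and -0.59 (adjusted p = 0.0149), and had 0.21 (adjusted p = 0.454) in E15.5-mSGcm.

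NFIL3, the repressor that competes with DBP and TEF for D-boxes, had 10.2 CPM in both control libraries, 19.4 and 19.7 in E8-cSGcm, 25.7 and 28.8 in E8-cDRGcm and 9.10 and 11.5 in E15.5-mSGcm. Its log2 fold changes were 0.94 (adjusted p = 8.79e-08), 1.42 (adjusted p = 3.52e-13) and 0.03 (adjusted p = 0.910). HLF, the PAR bZIP relative of DBP and TEF, was not called against control, and was lower in E15.5-mSGcm than in E8-cSGcm (log2 difference -0.71, adjusted p = 2.53e-04). Of the turnover genes, CIPC, which binds and inhibits CLOCK, fell from 39.1 and 34.5 CPM in control to 21.2 and 26.9 in E8-cSGcm and 15.48 and 17.3 in E8-cDRGcm. Its log2 fold changes there were -0.60 (adjusted p = 7.74e-06) and -1.16 (adjusted p = 9.08e-12), beside -0.14 (adjusted p = 0.295) in E15.5-mSGcm. USP2, a deubiquitinase of clock proteins, was called higher in E8-cSGcm, at 0.82 (adjusted p = 7.19e-06), and lower in E15.5-mSGcm, at -0.91 (adjusted p = 1.92e-04), with a log2 difference of -1.73 between these media (adjusted p = 1.12e-10). GSK3B, a kinase of clock proteins, was called only between E15.5-mSGcm and E8-cSGcm among the 6 contrasts, at 0.62 (adjusted p = 1.63e-12).

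Among further genes under clock control, NAMPT, the rate-limiting enzyme of NAD salvage, and PPARA, a lipid-sensing nuclear receptor, were called higher in E8-cDRGcm, at 0.75 (adjusted p = 1.70e-12) and 0.80 (adjusted p = 2.27e-11). WEE1, the kinase that holds back mitosis, was called lower in E15.5-mSGcm, at -0.60 (adjusted p = 1.16e-06). Between the chick media 0 of the 22 were called by edgeR, against a background of 2.62% higher and 4.87% lower, with 15 at an unadjusted p under 0.05 and 13 at an adjusted p under 0.05, which 30.2% of all genes reached.

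**Figure D4:**
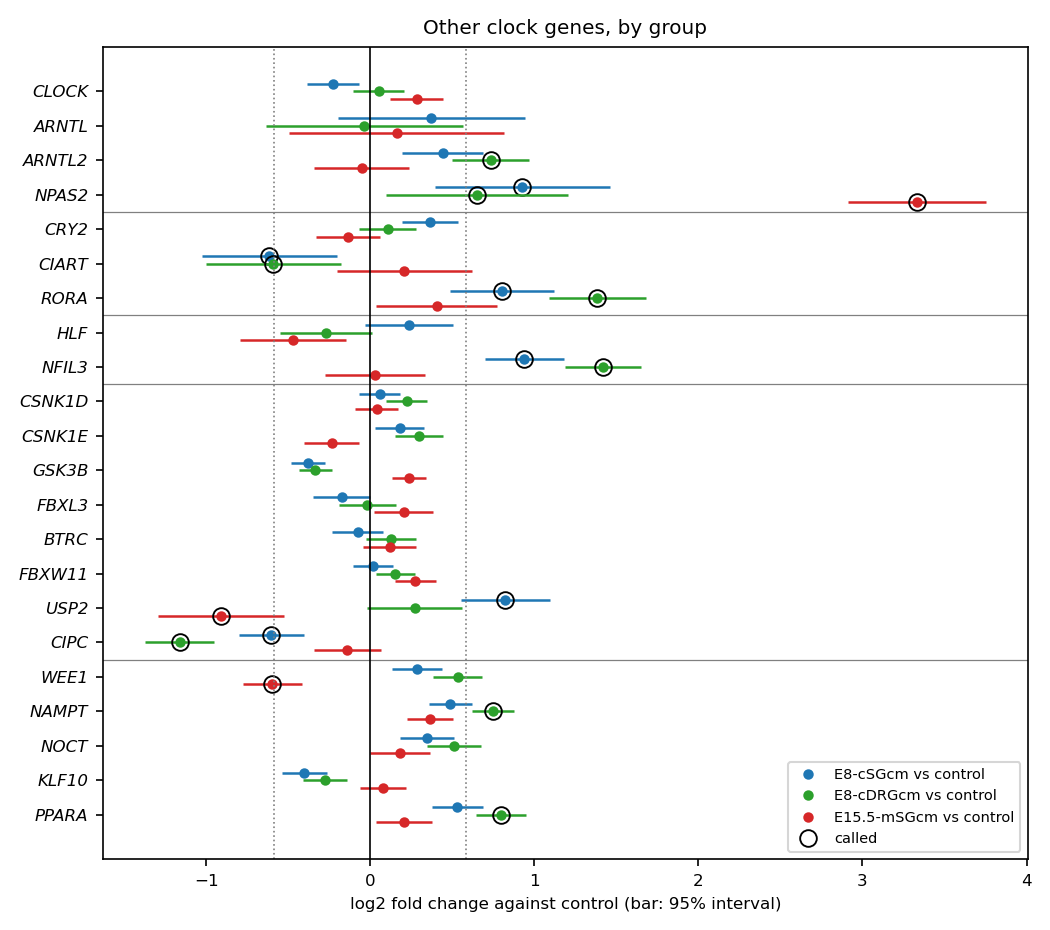
Log2 fold change against control of 22 further clock genes in the 3 media, with bars for the 95% interval, dotted lines at 1.5-fold, circles around called values and horizontal lines between the groups (activators, other repressors and RORA, D-box regulators, kinases and turnover, other clock-controlled genes). NPAS2 in E15.5-mSGcm stands farthest from 0, at 3.33.

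Signals that are known to act on PER1, BHLHE40 and other genes of the family outside the clock were read from 3 lists, whose part in the results was not tested. Over all genes, 4.73% were called higher and 3.86% lower in E8-cSGcm, 9.81% and 10.9% in E8-cDRGcm, and 6.65% and 7.27% in E15.5-mSGcm. By the adjusted p alone, 31.3%, 49.5% and 37.8% of all genes passed.

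The glucocorticoid list held 7 tested genes, targets of the hormone and the gene of its receptor, NR3C1. Of these, 1 was called higher in E8-cSGcm, 2 in E8-cDRGcm and 2 in E15.5-mSGcm, and 0 lower, and 4, 5 and 3 passed the adjusted p alone. TSC22D3 was at 1.64 in E8-cDRGcm (adjusted p = 2.19e-17), and KLF9 was called in both chick media, at 0.94 and 1.10. In E15.5-mSGcm the called genes were SGK1, at 3.99 (adjusted p = 4.01e-11), from 8 reads in both control libraries to 61 and 91, and NR3C1 itself, at 0.64 (adjusted p = 5.73e-07). FKBP5, named after its value was seen, was at -0.47 there (adjusted p = 5.72e-07), under 1.5-fold.

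Of 6 cAMP and immediate-early genes tested, 1 was called higher and 1 lower in E8-cSGcm, 4 and 0 in E8-cDRGcm, and 3 and 1 in E15.5-mSGcm, and 3, 4 and 5 passed the adjusted p alone. CREM was called in all 3 media, at 0.69, 1.33 and 1.05, FOS in E8-cDRGcm at 1.30, and DUSP1 in E15.5-mSGcm at 1.22. EGR1 was the gene called lower, at -1.04 in E8-cSGcm (adjusted p = 4.34e-05) and -0.71 in E15.5-mSGcm (adjusted p = 0.00527).

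Of 8 hypoxia targets tested, 3 were called higher and 1 lower in E8-cSGcm, 1 and 2 in E8-cDRGcm, and 0 and 1 in E15.5-mSGcm, and 7, 7 and 5 passed the adjusted p alone. NDRG1 was at 0.92 in E8-cSGcm and 1.64 in E8-cDRGcm, and -0.13 (adjusted p = 0.773) in E15.5-mSGcm. EGLN3 was at 0.91 in E8-cSGcm (adjusted p = 1.93e-06), and ANKRD37 was called lower in both chick media, at -1.31 and -1.54. ADM was at 0.74 in E8-cSGcm (adjusted p = 0.00316), 0.55 in E8-cDRGcm (adjusted p = 0.0224) and 0.58 in E15.5-mSGcm (adjusted p = 0.0352). In E15.5-mSGcm the genes that passed the adjusted p alone, named after their values were seen, were VEGFA at 0.48, ADM, BNIP3 at 0.20, PDK1 at -0.28 and PFKFB4 at -0.61, of which PFKFB4 was called.

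The genes whose levels ran most like those of the 3 members with the widest range were found by Pearson's r of log2 CPM over the 8 libraries, which share the same groups, and are given as a description. For BHLHE40 they were AKAP6 (r = 0.995), DUSP1 (0.994) and BDNF (0.992), and 101 of 10338 genes compared reached 0.95. AKAP6 had 13.6 and 13.7 CPM in control and 23.1 and 25.7 in E15.5-mSGcm, and BDNF 34.3 and 32.4 against 73.5 and 95.8. For PER3 they were MCCC2 (0.987), FKBP1A (0.985) and UBAC1 (0.984), and 44 genes reached 0.95. MCCC2 moved far less than PER3, from 106 and 101 CPM in control to 82.0 and 77.3 in E8-cDRGcm. For BHLHE41 they were VEZF1P1 (0.982), NAA25 (0.981) and TRIM4 (0.965), and 7 of 10339 genes reached 0.95. NAA25 ranged only from 107 to 130 CPM over the 8 libraries. The lower bound of 3 on mean log2 CPM applied to the genes compared and not to the members. BHLHE41 itself, at a mean log2 CPM of 0.18 and 5 to 20 reads a library, is limited by depth.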

How the data were processed

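The 8 libraries were prepared by a strand-keeping kit for whole RNA, each from 50 ng, and sequenced as single 75 bp reads. The authors deposited raw counts of reads per Ensembl gene, with no normalization and no filter on genes. The submitters' processing notes name bcl2fastq 2.17.1.14, cutadapt 1.9.1, TopHat2 2.1.0 and HTSeq 0.11.3. The genome build is hg19 in the methods of the study and hg38 in those notes and was not settled here, and the strand option and annotation release are not given in the sources used here. Identifiers were matched to symbols, positions and exon lengths of GENCODE 44 on GRCh37 (58611 of 60676).

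Each library was placed in its group by its title. Counts were normalized by TMM, filtered by filterByExpr by group and tested with edgeR 4.0.16 (robust quasi-likelihood fit of all 8 libraries, R 4.3.3), with Benjamini-Hochberg adjustment over 16680 genes. Intervals are 95%. Levels are normalized CPM, with a prior count of 2 where log2 CPM was used. The steps were tested on simulated data. Replicate libraries of a group differed by more than counting error (chi-square per gene 1.80 to 3.83). The replicate numbers come from the titles, and same-numbered libraries did not deviate together (r from -0.0437 to 0.0420). Start region sequences were read from RefSeq tables of GRCh38.p14, which list all 10 genes. 3 genes of the lists are not reported here. Members and gene lists were chosen with earlier results of these data known. All 10 members were named, other clock genes where called in a contrast, up to 4 called genes of each signal list with the largest changes (a rule that names no contrast, read here over those with control, with exceptions said in the text), and the 3 genes most like each of the 3 members with the widest range (mean log2 CPM of at least 3). Alternatives were DESeq2 1.42.0, RLE size factors, 2 other filters, the adjusted p alone, only the libraries compared, the replicate block, thinning to 7930765 reads, a correction for GC content and length, and each library left out in turn.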

Additional observations from a re-analysis of the deposited data

How the results depend on the processing

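Under every alternative run, no fold change of the 10 genes turned its direction past the threshold. Of the values computed for single genes, 978 stayed on the same side of the threshold, which includes the fold criterion. Changes that passed the adjusted p alone in edgeR but not in DESeq2 are among the 978. Another 27 passed newly, most of them only because the fold criterion was dropped from the unchanged main fit. The others passed on leaving out 1 library or with the filter at 1 count in total. The remaining 8 no longer passed. All of those 8 were BHLHE41 between E15.5-mSGcm and a chick medium, which also lost its call without E8-cSGcm replicate 2 (adjusted p = 0.0636) and, against E8-cDRGcm, without E8-cDRGcm replicate 1 (0.176), with thinning (0.0680) and with the filter at 1 count in total (0.0652), by edgeR. With the adjusted p alone the counts were 3 in E8-cSGcm, 4 in E8-cDRGcm and 6 in E15.5-mSGcm against control, 2 between the chick media, and 6 and 8 for E15.5-mSGcm against E8-cSGcm and E8-cDRGcm. A filter of 10 counts in every library removes BHLHE41, and left 1 call for E15.5-mSGcm against control and 1 against E8-cSGcm, where DESeq2 also called 1. Leaving out each library in turn gave 0 to 1 calls in E8-cSGcm (1, DBP, without control replicate 2), 1 to 2 in E8-cDRGcm (2, with NR1D2, without E8-cDRGcm replicate 2), and 2 to 3 in E15.5-mSGcm (3, with PER2, without E15.5-mSGcm replicate 2). It gave 1 between the chick media, 1 to 3 for E15.5-mSGcm against E8-cSGcm (1 without E15.5-mSGcm replicate 1) and 2 to 3 against E8-cDRGcm. The lone library of a group was then assumed to vary like the other groups. With the replicate number as a block, the pairing changed no count: 0, 1 and 2 against control, and 1, 2 and 3 between media. Over all genes, DESeq2 called 449 higher and 390 lower in E8-cSGcm against 789 and 644 by edgeR, and 205 and 485 between the chick media against 437 and 812. No scaling moved the median of all genes by more than 0.1 on the log2 scale. With 5 to 20 reads a library, BHLHE41 is limited by depth.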
